A study of Homo sapiens with 18 samples.

Results

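The subject is the change in mRNA expressions that VTP50469, a Menin inhibitor, produced in common in 3 established AML cell lines. It was measured in 14 of the 18 libraries of the series, which are the control and VTP50469 libraries of MOLM13, MV4-11 and OCI-AML3, and the 4 libraries with OTX015 were not used. MOLM13 cells carry an MLL-AF9 fusion, MV4-11 cells carry a rearranged MLL gene, and OCI-AML3 cells have mutant NPM1 with germline MLL. MOLM13 was exposed to 500 nM VTP50469 in 2 libraries against 2 controls, MV4-11 to 1000 nM in 2 libraries against 2 controls, and OCI-AML3 to 500 nM in 3 libraries against 3 controls, each for 16 h. MOLM13 and OCI-AML3 were grown in RPMI and MV4-11 in IMDM, so that line, medium and, for MV4-11, concentration cannot be told apart. The compound is called SNDX-50469 in the study and VTP50469 in the labels. The labels say of the other arm only that it is a control and name no vehicle.

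For each gene, a log2 effect (VTP50469 minus control) was estimated in each line against that line's own controls, and the mean effect is the average of the 3 line effects, each line with equal weight. A gene was called in the mean at an adjusted p below 0.05 (edgeR's quasi-likelihood test, Benjamini-Hochberg adjustment) and a mean effect of at least 0.322 in size, the log2 of the fold limit that the study used, and the genes described are those called in the mean whose effect has the same sign in every line. There were 2211 such genes of 17623 tested, out of 58037 in the table.

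Menin is a scaffold protein that tethers MLL and its fusion proteins to chromatin at the promoters of their target genes. The best known of these targets are HOXA9 and the homeobox cofactor gene MEIS1, which hold leukemia cells in a self-renewing state. Mutant NPM1 leukemias also depend on the HOX and MEIS1 program with an intact MLL gene. Menin inhibitors displace Menin from MLL, and myeloid differentiation is a known outcome in sensitive cells.

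Libraries held 21447286 to 23684811 counts in MOLM13, 20730486 to 30090830 in MV4-11 and 49881047 to 59711884 in OCI-AML3. The common biological coefficient of variation between libraries of a group was 2.38% in MOLM13, 3.15% in OCI-AML3 and 13.2% in MV4-11. It was 6.53% in the fit of all 14 libraries, so the pooled spread is wider than that of MOLM13 and OCI-AML3 and narrower than that of MV4-11. Standard errors and adjusted p of mean effects rest on this pooled fit, so they can be too small for the spread in MV4-11. MV4-11 control replicate 1 stood apart with 10.3% of its counts from the mitochondrial genome, against 5.6% to 6.68% in the other MV4-11 libraries. Of the markers of AML blasts, CD33, SPI1 and PTPRC were at 61 CPM (counts scaled to a common library size, for these markers without TMM factors) or more in every library, while CD68 was at 0.338 CPM or less. The defining lymphoid markers MS4A1 and CD3E stayed at or under 0.0707 CPM and HBB at 0 in every library.

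In the mean over lines, 1606 genes (9.11% of those tested) were called higher and 1088 (6.17%) lower. Of these, 1267 (7.19%) were higher in every line and 944 (5.36%) were lower in every line, and the remaining mean calls had at least 1 line of the opposite sign. The median mean effect was 0.588 among the higher genes and -0.453 among the lower genes. Many of the line effects behind these means were small, since 467 of the higher and 197 of the lower genes reached the fold limit in each line, and 43 and 10 reached 2-fold in each line. A gene could pass the filter on low counts through 1 line alone. In each line, 771 of the higher and 768 of the lower genes had at least 1 CPM in every library of a group. Among same-sign genes tested in each line's own fit, 72 higher and 69 lower genes were called that way by no line alone. The effect was largest in MV4-11 for 65% of the higher and 79.7% of the lower genes. With MV4-11 left out, 48.9% of the same-sign genes that could still be tested were called in the same direction, against 84.5% without MOLM13 and 79.1% without OCI-AML3.

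A stricter reading asks for a call in each line from a fit of that line's libraries alone, with its own spread. Of 12764 genes tested in every line, 157 (1.23%) were called higher and 64 (0.501%) lower in each line. Of the genes called by themselves, the 157 shared rises are 14.4% of the rises in MOLM13, 10.8% of those in MV4-11 and 18.3% of those in OCI-AML3, and the 64 shared falls are 9.54%, 4.84% and 13% of the falls. A further 145 genes were called higher in 1 line and lower in another. Across the tested genes, line effects correlated with Pearson's r of 0.179 between MOLM13 and MV4-11, 0.118 between MOLM13 and OCI-AML3 and 0.213 between MV4-11 and OCI-AML3, as a description over genes that share libraries within a line. In every line the treated libraries all lay above the controls for 983 tested genes (5.58%) and below them for 1499 (8.51%). Among same-sign called genes the groups were without overlap in every line for 52.9% of the higher and 69.5% of the lower genes.

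**Figure D1:**
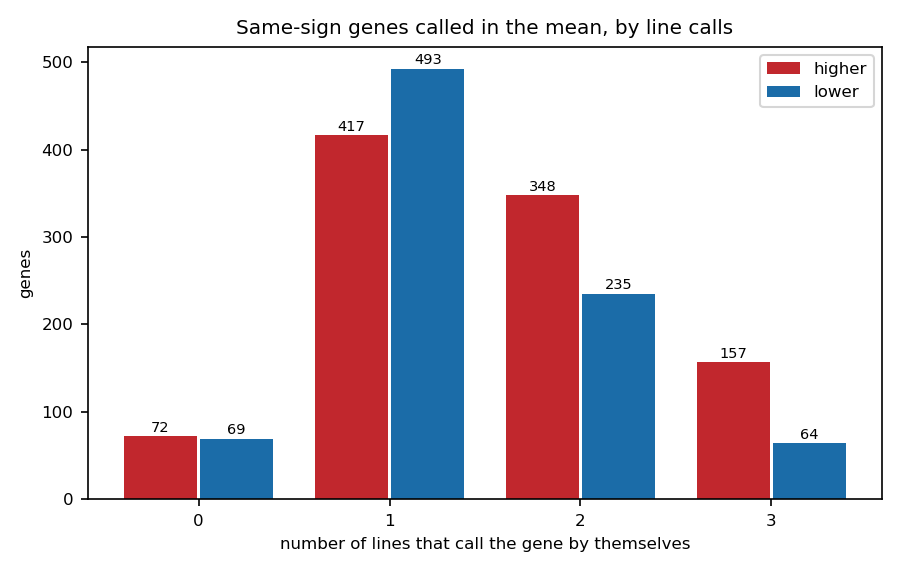
Bars give the number of genes (vertical axis) called in the mean with the same sign in all 3 lines and tested in each line's own fit, by how many lines call them by themselves (horizontal axis), higher in red and lower in blue. The 2 bars at 1 line are the tallest, with 417 and 493 genes, and the bars at 3 lines hold 157 and 64.

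Ranked by the smallest of the 3 line effects among genes of at least 1 CPM, the 12 lower genes included JMJD1C-AS1, TMEM255A, CDK6-AS1, CPEB2, PDE4DIPP7, NKAPP1, GOLGA8Q, KCNN2, PBX3, CHRM4 and BATF3. JMJD1C-AS1, an antisense RNA of the histone demethylase-family gene JMJD1C, went from 5.09 and 4.18 to 0.142 and 0.317 CPM in MOLM13, from 5.24 and 4.91 to 0.554 and 0.468 in MV4-11, and from 0.662, 0.497 and 0.648 to 0.0691, 0.0682 and 0.135 in OCI-AML3. The groups were far apart in each line, and the mean log2 effect was -3.43 ± 0.17 (SE, adjusted p = 1.39e-09). TMEM255A, a transmembrane protein gene, fell by 3.02, 2.06 and 2.58 on the log2 scale in MOLM13, MV4-11 and OCI-AML3, and its level in OCI-AML3 went from 24.6, 26 and 25.6 to 4.42, 4.23 and 4.11 CPM. CPEB2, which encodes a regulator of mRNA polyadenylation and translation, fell by 1.84, 1.51 and 1.24 on the log2 scale. KCNN2, a calcium-activated potassium channel gene, fell by 0.85, 1.85 and 0.96, and BATF3, a transcription factor of dendritic cells, fell by 0.80, 1.15 and 0.86.

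PBX3 encodes the homeobox partner that binds DNA with HOXA9 and MEIS1. It lies at chr9:125747373-125967377 (RefSeq, GRCh38.p14). Its level went from 99.8 and 99.2 to 28.2 and 28.9 CPM in MOLM13, from 114 and 105 to 30.7 and 36.1 in MV4-11, and from 29.3, 30 and 29.6 to 17, 16.1 and 17 in OCI-AML3. Treated libraries lay below the controls in each line, and the mean effect was -1.45 ± 0.042 (adjusted p = 3.39e-12, pooled fit). With each line fitted alone, the SE of its effect was 0.0537 in MOLM13, 0.159 in MV4-11 and 0.0387 in OCI-AML3.

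A few of the 12 lower genes rested on very few reads in 1 line or more. PDE4DIPP7, a pseudogene, had 5 reads in the OCI-AML3 controls and 0 in the treated libraries, and 15 and 7 in MOLM13, where the groups overlapped, so that its fall was called by itself in MV4-11 alone. GOLGA8Q had 4 and 2 reads in OCI-AML3 and a mean effect with an adjusted p of 0.0484 (edgeR), and it lost its call in 14 of 28 alternatives, over which the mean effect ran from -2.02 to -0.31. CHRM4 had 16 reads in the MOLM13 controls and 1 in the treated libraries, and 27 and 10 in MV4-11, where its own fit did not call it (adjusted p = 0.0778). The line effects of these genes in those lines are values of the fitted model and not measured folds. PDE4DIPP7, NKAPP1 and GOLGA8Q are copies of other genes, and the sources used here do not give how reads were split among copies.

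**Figure D2:**
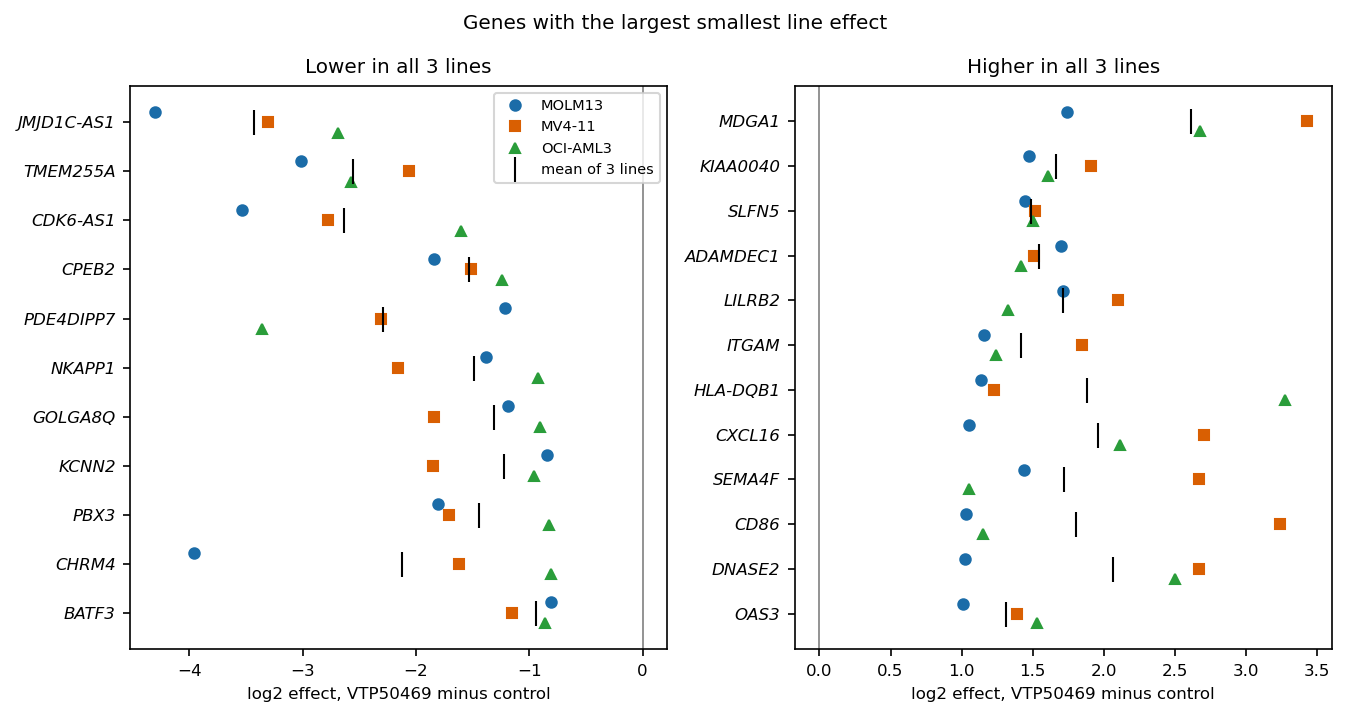
Log2 effects (horizontal axes) of 11 lower and 12 higher genes chosen by their smallest line effect, with MOLM13 as circles, MV4-11 as squares, OCI-AML3 as triangles and the mean of 3 lines as a bar. SLFN5 has nearly equal effects in the 3 lines, from 1.45 to 1.51, whereas CHRM4 runs from -3.95 to -0.81.

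Of 12 MLL targets named by the study, 7 were called lower in the mean and lower in every line (5.36% of all tested genes were). Their median mean effect was -0.798 over the 12, against -0.002 over all tested genes. The study chose this list with these samples at hand, so the count is not independent evidence of its direction. The 7 were MEIS1, PBX3, JMJD1C, LAMP5, FLT3, CDK6 and MYB, and all but JMJD1C and MYB were called in each line by itself. MEIS1 went from 39.2 and 44.4 to 6.95 and 6.62 CPM in MOLM13, from 85.8 and 75.2 to 19.3 and 24.4 in MV4-11, and from 37, 35.2 and 36.3 to 25.2, 25.4 and 25.9 in OCI-AML3. The fall was present in every line without overlap, and its size differed between lines (adjusted p = 1.16e-07), with effects of -2.62, -1.88 and -0.50.

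FLT3, the receptor tyrosine kinase that is often mutated in AML, had closer line effects of -0.75, -0.94 and -1.06. It went from 277 and 291 to 170 and 169 CPM in MOLM13, from 487 and 522 to 257 and 271 in MV4-11, and from 27.4, 28.7 and 28.8 to 13.4, 13.5 and 13.7 in OCI-AML3. OCI-AML3 thus started from a far lower level and had the largest of the 3 line effects, and the mean effect was -0.91 ± 0.033 (adjusted p = 4.06e-11). CDK6, a kinase that drives entry into S phase, fell by 0.49 in MOLM13, 1.72 in MV4-11 and 0.44 in OCI-AML3. LAMP5, a lysosome-associated membrane protein gene, fell by 0.80, 0.56 and 0.85, and its level in MOLM13 went from 984 and 978 to 563 and 563 CPM. MYB, a transcription factor of blood progenitors, fell in the mean by 0.51, with line effects of -0.22, -0.98 and -0.32.

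The 5 other targets of the list did not meet the rule. MEF2C, a transcription factor, had effects of -1.97 and -3.42 in MOLM13 and MV4-11 and 0.08 in OCI-AML3, where it read 92.6, 99.1 and 96.3 CPM in controls and 101, 100 and 104 in treated libraries. HOXA9 had effects of -0.43, -0.98 and 0.02, and BMI1, a Polycomb gene, had -0.61, -1.22 and 0.09. These 3 genes were called lower in the mean although OCI-AML3 had the opposite sign. SENP6 had negative effects in every line (-0.51, -0.25 and -0.02) and an adjusted p of 0.000781 (edgeR), but its mean effect of -0.26 was under the fold limit. TCF4 was not called, with a mean effect of -0.07.

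Among 17 tested genes of a further list of MLL fusion targets, 8 were lower in every line and called, 1 was higher (BAHCC1), and the median mean effect was -0.269. CPEB2, SATB1, IGF2BP2 and ZEB2 were called in each line by itself. SATB1, a chromatin organizer, went from 298 and 306 to 159 and 152 CPM in MOLM13, from 376 and 350 to 97.6 and 133 in MV4-11, and from 491, 519 and 514 to 313, 314 and 320 in OCI-AML3. IGF2BP2, an mRNA-binding protein gene, fell by 0.71, 1.68 and 1.16, and ZEB2, a zinc finger transcription factor, fell by 0.52, 0.55 and 0.38. The line effects of ZEB2 were close together, and a difference in size between lines was not detected (adjusted p = 0.61). RUNX2, MBNL1, ADCY9 and TAPT1 were called in the mean with mean effects of -0.78, -0.69, -0.42 and -0.35.

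The HOXA genes as a cluster did not move in a common direction, with median line effects of -0.43 in MOLM13, -0.542 in MV4-11 and 0.602 in OCI-AML3. Of 10 tested HOXA genes, only HOXA11 was called and lower in every line (mean effect -0.49), and its line effect in OCI-AML3 was -0.11. Of 9 HOXB genes, 8 had 0 reads in every library of a line, as 894 of the tested genes did, so their mean effect cannot be estimated and no call was possible. The remaining 1, HOXB7, had a mean effect of 0.06 and was not called. In the fit of OCI-AML3 alone, HOXB6, HOXB9 and HOXB13 were called higher. Of 26 genes for Menin, MLL and partners in their complexes, 0 were called with the same sign in every line by edgeR or by DESeq2, while 6 had the same sign in every line at an unadjusted p below 0.05. MEN1 itself, which encodes Menin, had a mean effect of 0.04 ± 0.032, with 148 and 155 CPM in MOLM13 controls and 146 and 153 in treated libraries.

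**Figure D3:**
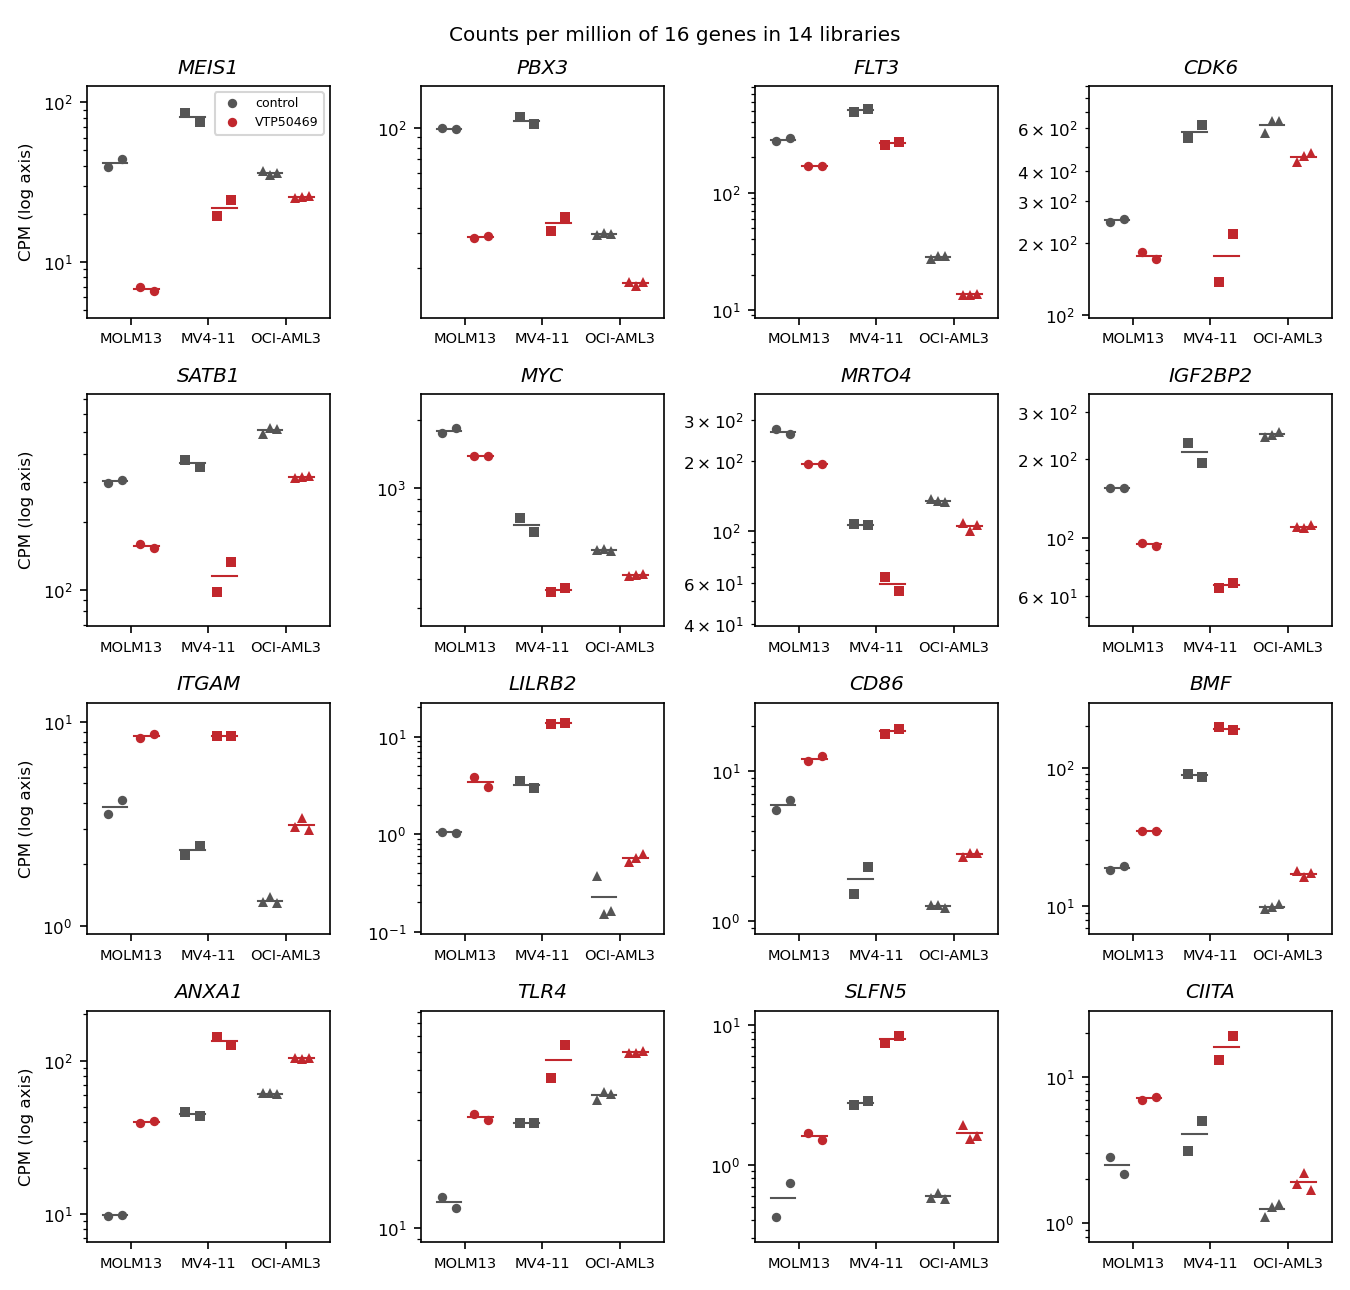
CPM on log axes of 16 genes in each of the 14 libraries, grouped by line, with controls in grey, VTP50469 in red and a horizontal bar at the group mean. The upper 8 genes lie lower and the lower 8 genes higher in the treated libraries of each line, and MEIS1 and PBX3 show a smaller step in OCI-AML3 than in the other lines.

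Some of the genes that fell lay next to each other. Of the 63 genes lower in each line by itself that have a RefSeq position, 14 (22.2%) had another such gene within 100000 bases, against 14 of 153 (9.15%) of the higher genes, and the difference was not tested. The other 49 lower genes had none. The pairs included CDK6 with CDK6-AS1, SATB1 with SATB1-AS1, LAMP5 with LAMP5-AS1, JMJD1C-AS1 with REEP3, DLX1 with DLX2, and TMEM255A with NKAPP1. This view of neighbours was chosen after the values were seen. CDK6 (chr7:92604921-92836573) and CDK6-AS1 (chr7:92836483-92917187) overlap at their starts, and CDK6-AS1 fell by 3.53, 2.78 and 1.60, which is more than CDK6 in each line. DLX1 and DLX2, adjacent homeobox genes, had mean effects of -0.93 and -1.19. REEP3, whose start lies next to that of JMJD1C, fell by 1.47, 0.62 and 0.59. The sources used here do not give the strand setting of the counting, so where sense and antisense genes overlap their reads cannot be told apart.

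Promoter sequences are shown for 5 of these genes as examples of the letter matches tallied over all genes. Each runs from 250 bases before to 50 bases after the start site on which the RefSeq promoter table (GRCh38.p14) sets it, 5′ to 3′ on the gene's strand, and capitals mark the match. FLT3, CDK6 and MRTO4 hold CACGTG, the E-box that MYC and related proteins can bind, PBX3 holds TGACAG, the MEIS site, as its reverse complement, and TLR4, a gene that rose, holds GAGGAAGT, a PU.1 site, as its reverse complement at 2 places. The windows are chr13:28100527-28100826 on the minus strand for FLT3, chr7:92836524-92836823 on the minus strand for CDK6, chr1:19251555-19251854 on the plus strand for MRTO4, chr9:125747933-125748232 on the plus strand for PBX3 and chr9:117704153-117704452 on the plus strand for TLR4. The start site is the first base of the gene for all but PBX3, where it lies 810 bases inside the gene, and for 83.9% of the 11628 promoters tallied.
FLT3: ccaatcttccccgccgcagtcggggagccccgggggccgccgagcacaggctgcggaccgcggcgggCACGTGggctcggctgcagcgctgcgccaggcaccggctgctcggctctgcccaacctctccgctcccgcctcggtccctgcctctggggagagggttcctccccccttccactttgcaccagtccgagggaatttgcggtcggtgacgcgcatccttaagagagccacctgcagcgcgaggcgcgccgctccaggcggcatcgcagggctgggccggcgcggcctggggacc
CDK6: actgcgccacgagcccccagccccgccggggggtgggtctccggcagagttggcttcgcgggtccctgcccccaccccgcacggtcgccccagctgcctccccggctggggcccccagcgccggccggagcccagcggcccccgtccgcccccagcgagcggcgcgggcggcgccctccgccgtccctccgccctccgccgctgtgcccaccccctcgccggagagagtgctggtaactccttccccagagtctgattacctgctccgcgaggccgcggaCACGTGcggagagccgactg
MRTO4: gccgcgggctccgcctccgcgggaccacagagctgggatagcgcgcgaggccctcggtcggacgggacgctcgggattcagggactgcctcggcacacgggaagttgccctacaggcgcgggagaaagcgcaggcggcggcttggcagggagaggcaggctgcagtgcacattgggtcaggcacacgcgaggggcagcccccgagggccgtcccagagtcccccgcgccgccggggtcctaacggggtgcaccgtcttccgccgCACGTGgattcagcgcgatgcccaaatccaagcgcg
PBX3: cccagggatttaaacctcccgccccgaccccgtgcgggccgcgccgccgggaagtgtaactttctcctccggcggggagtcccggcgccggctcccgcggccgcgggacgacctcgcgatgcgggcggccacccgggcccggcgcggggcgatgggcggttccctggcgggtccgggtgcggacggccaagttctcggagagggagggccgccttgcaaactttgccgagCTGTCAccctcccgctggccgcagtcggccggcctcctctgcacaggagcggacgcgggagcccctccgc
TLR4: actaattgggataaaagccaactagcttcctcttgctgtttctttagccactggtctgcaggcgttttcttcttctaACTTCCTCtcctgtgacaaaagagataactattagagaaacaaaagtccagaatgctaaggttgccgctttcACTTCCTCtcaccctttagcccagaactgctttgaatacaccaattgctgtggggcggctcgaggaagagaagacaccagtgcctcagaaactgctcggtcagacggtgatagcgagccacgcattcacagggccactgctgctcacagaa

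The E-box was in 14.4% of 640 promoters of genes lower in every line, 6.98% of 860 promoters of genes higher in every line and 10% of the 11628 promoters of all tested genes. The PU.1 letters were in 4.77% of the promoters of higher genes, 3.59% of lower genes and 2.73% of all. The MEIS site was in 10.5% of lower, 15% of higher and 13.5% of all promoters. TGATTTAT, a HOX-PBX site, was in 0.469%, 0.233% and 0.344%, and TTTCCCGC, an E2F site, was in 1.88%, 1.28% and 2.58%, in the same order. Both strands were read. No test was made of these shares, and a match says only that the letters are present.

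MYC and genes of ribosome biogenesis were lower in common, by small amounts. MYC encodes a transcription factor that drives ribosome production and growth. Of 39 genes on the list, 33 were lower in every line, 21 were also called (5.36% of all tested genes were), and the median mean effect was -0.332. In the mean, 37 of the 39 were lower at an adjusted p below 0.05, and 16 of these were under the fold limit. MYC went from 1754 and 1829 to 1384 and 1388 CPM in MOLM13, from 745 and 645.3 to 353.3 and 367.5 in MV4-11, and from 535.5, 541.7 and 534.5 to 415.1, 417.8 and 423.8 in OCI-AML3. The treated libraries lay below the controls in each line, and the line effects were -0.37, -0.95 and -0.36. MYC, MRTO4, NOP16 and TERT were the 4 members called in each line by itself. MRTO4, a factor of the large ribosomal subunit's assembly, fell by 0.46, 0.84 and 0.36, NOP16, a nucleolar protein gene, by 0.37, 0.88 and 0.34, and TERT, the catalytic subunit of telomerase, by 0.36, 1.32 and 0.67.

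The count of this list depends on MV4-11, since its median line effect was -0.607 there, -0.19 in MOLM13 and -0.202 in OCI-AML3. Without MV4-11 the called members numbered 4, without MV4-11 control replicate 1 they numbered 16, and with no scaling factors 12. In the edgeR fit without MV4-11, 33 of the 39 were lower in both lines at an unadjusted p below 0.05. DESeq2 called 21 members and limma-voom with quantile normalization 10. NCL, the nucleolin gene, read 2335 CPM in that control and 1603 in the other MV4-11 control, with a mean effect of -0.39. In the unfolded protein response list, 8 of 23 genes were called lower in every line, among them XBP1 (line effects -0.41, -1.20 and -0.30) and the protein disulfide isomerase gene PDIA6 (-0.30, -0.77 and -0.26). Those 8 became 5 without MV4-11 control replicate 1, 3 with no scaling factors, 4 by limma-voom and 1 without MV4-11. In that last edgeR fit, 15 of the 23 were lower and 3 higher in both lines at an unadjusted p below 0.05.

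Outside these lists, SRGN, which encodes the granule proteoglycan serglycin, went from 2004 and 2003 to 1466 and 1469 CPM in MOLM13, from 2319 and 2188 to 1093 and 1050 in MV4-11 and from 1045, 1064 and 1035 to 733.3, 692.7 and 705 in OCI-AML3. It was called lower in each line by itself, with a mean effect of -0.69 ± 0.031. FOXP1, a transcription factor, and PHF10, a subunit of the SWI/SNF chromatin remodeler, were also lower in each line, with mean effects of -0.78 and -0.94, and were picked after their values were seen.

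**Figure D4:**
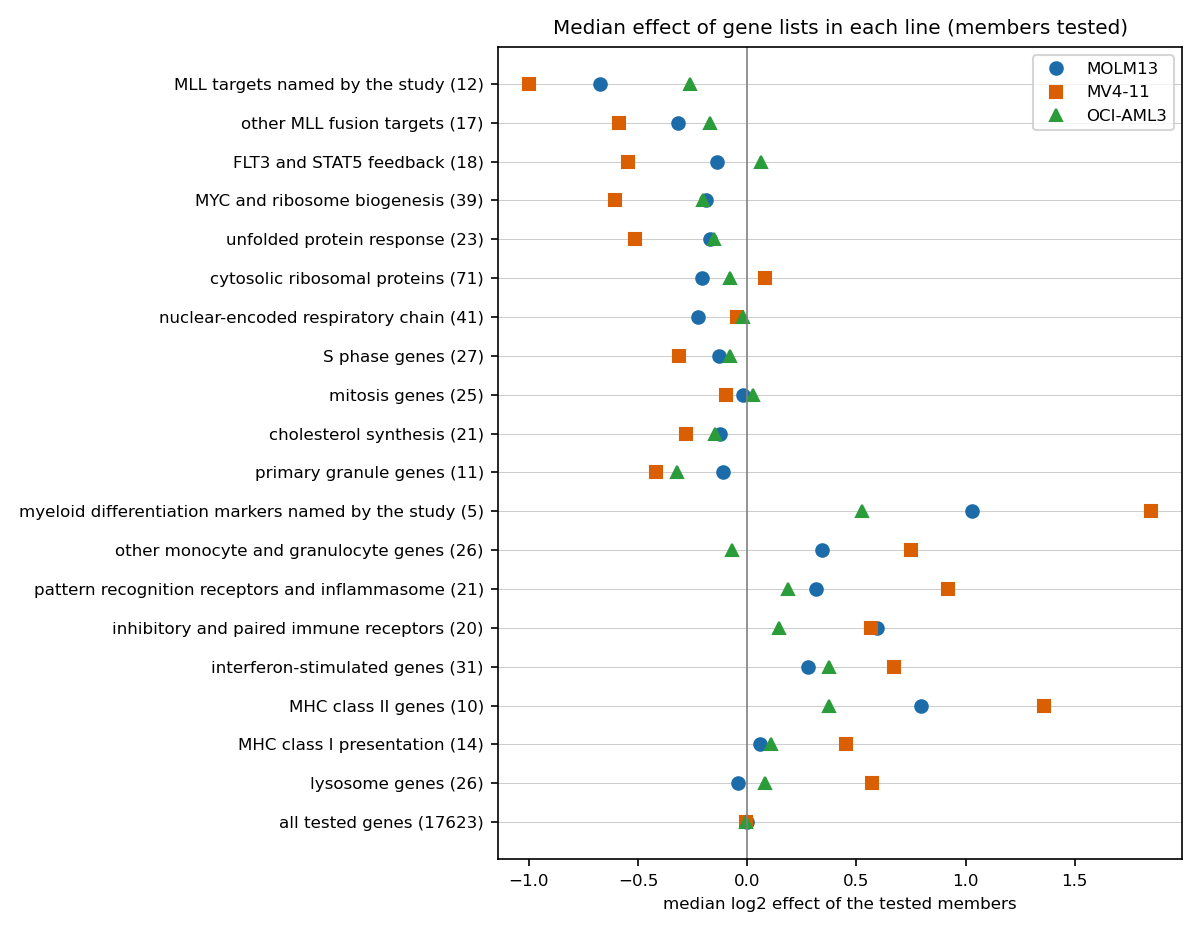
Median log2 effect of the tested members of 19 gene lists and of all tested genes (horizontal axis), with MOLM13 as circles, MV4-11 as squares and OCI-AML3 as triangles and the number of tested members in brackets. The MLL target, MYC and ribosome biogenesis and unfolded protein response medians lie below 0 in each line, the immune receptor, pattern recognition and MHC class II medians above 0 in each line, and lysosome genes at -0.041, 0.572 and 0.08.

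The 12 higher genes by the smallest line effect were MDGA1, KIAA0040, SLFN5, ADAMDEC1, LILRB2, ITGAM, HLA-DQB1, CXCL16, SEMA4F, CD86, DNASE2 and OAS3. ITGAM encodes CD11b, the integrin subunit used as a marker of myeloid maturation. It went from 3.52 and 4.13 to 8.37 and 8.75 CPM in MOLM13, from 2.22 and 2.47 to 8.52 and 8.53 in MV4-11, and from 1.3, 1.38 and 1.3 to 3.06, 3.39 and 2.96 in OCI-AML3. Its groups did not overlap in any line, and the mean effect was 1.42 ± 0.073 (adjusted p = 1.95e-09).

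CD86, a costimulatory ligand of antigen-presenting cells, went from 5.51 and 6.39 to 11.7 and 12.6 CPM in MOLM13, from 1.51 and 2.28 to 17.8 and 19.3 in MV4-11, and from 1.28, 1.28 and 1.22 to 2.69, 2.83 and 2.86 in OCI-AML3. The rise was near 2-fold in MOLM13 and OCI-AML3 (1.03 and 1.15 on the log2 scale) and 3.24 on that scale in MV4-11. SLFN5, an interferon-induced Schlafen gene, rose by 1.45, 1.51 and 1.5, and a difference between the lines was not detected (adjusted p = 1). KIAA0040 rose by 1.47, 1.91 and 1.61. DNASE2, which encodes a lysosomal DNase, rose by 1.02, 2.67 and 2.50, from 7.36 and 9.21 to 57.2 and 49.4 CPM in MV4-11, while its OCI-AML3 libraries held 10 reads in controls and 63 in treated cells.

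Several of the 12 rested on a handful of reads in 1 line or more. MDGA1 had 1 and 4 reads in the control and treated MOLM13 groups, ADAMDEC1 had 3 and 11 (6 and 18 in OCI-AML3), and OAS3 4 and 9. HLA-DQB1 had 2 and 5 reads in MOLM13 and 0 and 5 in OCI-AML3, and was above 5 CPM only in MV4-11, so the line effects of HLA-DQB1 and ADAMDEC1 outside MV4-11 are values of the fitted model. CXCL16, a chemokine gene, and SEMA4F, a semaphorin gene, had 14 and 7 reads in the MOLM13 controls. Over all, 132 of the higher and 28 of the lower same-sign genes had a group with 3 reads or fewer in all, and 0 of the genes called in each line did. When tests were kept to genes with at least 1 CPM in every library of a group in each line, 908 were called and higher in every line and 623 lower.

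All 3 of the called study-named differentiation markers, ITGAM, ITGAX and CD86, were called in each line by itself, out of 5 on that list, and the study chose them with these samples at hand. ITGAX, which encodes CD11c, rose by 1.06, 1.33 and 0.53 on the log2 scale. LYZ, the lysozyme gene, had effects of 0.89, 0.01 and -0.10, and LY96, a partner of TLR4, was not called. Of 26 other monocyte and granulocyte genes, 6 were called and higher in every line (7.19% of all tested genes were). A further 5 were called higher in the mean with OCI-AML3 of the opposite sign. ANXA1, a glucocorticoid-regulated annexin of myeloid cells, was the member called in each line, and went from 9.77 and 9.98 to 39.3 and 40.8 CPM in MOLM13, from 46.3 and 43.9 to 142 and 126 in MV4-11, and from 61.5, 61.5 and 60.4 to 104, 102 and 104 in OCI-AML3. Not all monocyte genes took part, since the line effects (MOLM13, MV4-11, OCI-AML3) were 0.69, 2.67 and -0.31 for S100A8, 0.43, 1.87 and -0.37 for S100A9, which pair as calprotectin, and 1.07, 1.13 and -0.75 for the macrophage growth factor receptor gene CSF1R. The 6 called members of this list became 2 without MV4-11 and 14 without OCI-AML3.

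Of 20 inhibitory and paired immune receptors tested, 11 were called and higher in every line (7.19% of all tested genes were), and the median mean effect was 0.597. LILRB2, an inhibitory receptor for MHC class I, went from 1.05 and 1.03 to 3.83 and 3.04 CPM in MOLM13, from 3.48 and 2.95 to 13.6 and 13.8 in MV4-11, and from 0.37, 0.153 and 0.162 to 0.518, 0.563 and 0.623 in OCI-AML3. LILRB1, LILRA1, PILRA and CD244 were also called in each line by itself, with mean effects of 0.52, 0.91, 0.91 and 0.60. The LILR genes lie in a cluster of similar sequences on chromosome 19, and reads shared among them make single members uncertain. CD33, a sialic acid receptor and AML antigen, had a mean effect of 0.01 ± 0.040. The count of 11 was 10 without MV4-11, 11 without MOLM13 and 13 without OCI-AML3.

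Of 21 pattern recognition receptors and inflammasome genes, 9 were called and higher in every line (7.19% of all tested genes were), with a median mean effect of 0.646. TLR4, the receptor for bacterial lipopolysaccharide, went from 13.8 and 12.2 to 31.8 and 29.9 CPM in MOLM13, from 29.1 and 29.1 to 45.7 and 64.2 in MV4-11, and from 36.7, 39.8 and 38.9 to 59.4, 58.9 and 60.1 in OCI-AML3. TLR6, which pairs with TLR2, rose by nearly the same amount in each line (0.70, 0.78 and 0.66). CD14, the co-receptor of TLR4, had a mean effect of 1.31, on 8 and 16 reads in MOLM13. MEFV, the pyrin gene, rose with line effects of 1.39, 1.28 and 0.28.

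CYBB, the catalytic subunit of the phagocyte oxidase, had effects of 1.3 and 1.03 in MOLM13 and MV4-11 and 0.03 in OCI-AML3, where its level was highest (308, 336 and 331 CPM in controls). NCF1, which encodes another subunit, had a mean effect of 0.38 and has near-identical pseudogenes.

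Of 31 tested interferon-stimulated genes, 10 were called and higher in every line (7.19% of all tested genes were), and the median mean effect was 0.524. IFI6 and SLFN5 were called in each line by itself. IFI6, an interferon-induced gene, went from 0.893 and 0.836 to 2.84 and 2.49 CPM in MOLM13, from 14.5 and 6.48 to 29.4 and 23.2 in MV4-11, and from 5.27, 4.96 and 4.21 to 8.41, 7.62 and 8.38 in OCI-AML3. SAMD9L, an interferon-induced gene that was chosen after its values were seen, had line effects of 0.95 in MOLM13 and 1.15 in OCI-AML3 and a mean effect of 1.12. ISG15 was not common, with effects of -0.19, 0.38 and 2.67. Of 10 tested MHC class II genes, 5 were called and higher in every line, 7 had a positive effect in every line, and CIITA, the master activator of these genes, was called in each line. CIITA went from 2.84 and 2.16 to 7 and 7.25 CPM in MOLM13, from 3.12 and 4.97 to 13 and 18.9 in MV4-11, and from 1.11, 1.28 and 1.36 to 1.85, 2.2 and 1.68 in OCI-AML3. HLA-DRA, which encodes the alpha chain of HLA-DR, had 14 and 19 reads in the OCI-AML3 groups, so a change there was not detectable at this depth. The class II gene HLA-DQB1 met the rule on 2 and 5 reads in MOLM13 and 0 and 5 in OCI-AML3. It had enough reads for an own fit in MV4-11 only, so a rise common to the lines is not shown for it. Without MV4-11 the 5 became 3.

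Of 26 lysosome genes, 9 were called and higher in every line (7.19% of all tested genes were). The median effect of the list, however, was -0.041 in MOLM13, 0.572 in MV4-11 and 0.08 in OCI-AML3. The count was 0 in the edgeR fit without MV4-11, where 10 members were higher and 6 lower in both lines at an unadjusted p below 0.05. GRN, the progranulin gene, had line effects of 0.28, 0.66 and 0.27, and CTSD, a cathepsin gene, 0.13, 0.98 and 0.03.

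Genes of cell survival and cycle arrest moved singly. Of 19 p53 targets, 3 were called and higher in every line and 1 lower, with a median mean effect of -0.048. Of 18 BCL2 family genes and apoptosis inhibitors, 2 were called and higher in every line and 1 lower, with a median mean effect of 0.02. Over all tested genes the shares were 7.19% higher and 5.36% lower. BMF, a BH3-only gene that opposes BCL2, was called in each line and went from 18.1 and 19.6 to 35 and 34.9 CPM in MOLM13, from 90.3 and 85.7 to 195 and 188 in MV4-11, and from 9.5, 9.89 and 10.3 to 17.8, 16.3 and 17.4 in OCI-AML3. BCL2 was called lower in the mean with effects of -0.07, -2.14 and -0.91. BTG2, an antiproliferative p53 target, rose by 0.47, 0.70 and 0.31. CDKN1C, which encodes the CDK inhibitor p57, had effects of 0.99, 2.31 and 3.55, on 5 and 11 reads in MOLM13, and 0.409, 0.478 and 0.308 CPM became 5.16, 4.37 and 4.45 in OCI-AML3.

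Most genes of broad proliferation and metabolism lists did not pass the rule. Of all tested genes, 7.19% passed it as higher and 5.36% as lower. Of 25 mitosis genes, 0 were called in the mean by edgeR and 0 by DESeq2, while limma-voom called 2 higher, and 15 were past an unadjusted p below 0.05, 6 of them higher and 9 lower. Of 41 nuclear-encoded respiratory chain genes, 0 were called by edgeR or DESeq2, and at an unadjusted p below 0.05 1 was higher and 18 were lower. The 13 mitochondrial transcripts gave 0 calls by either tool and 0 at an unadjusted p below 0.05, and their median line effect was 0.153 in MOLM13, -0.567 in MV4-11 and -0.009 in OCI-AML3, beside the high mitochondrial share of MV4-11 control replicate 1. Of 21 cholesterol synthesis genes, 3 were called and lower in every line, a larger share than that of all tested genes. In this list 12 were lower in every line, and 12 were lower in the mean at an adjusted p below 0.05 (edgeR). Of 71 cytosolic ribosomal protein genes, 1 was called and lower in every line. The median line effects of this list were -0.209 in MOLM13, 0.08 in MV4-11 and -0.078 in OCI-AML3. In the edgeR fit without MV4-11, 0 were called, but 67 were lower in both lines at an unadjusted p below 0.05. Of 27 S phase genes, 19 were lower in the mean at an adjusted p below 0.05, and CDC6 and CDC45, with mean effects of -0.34 and -0.32, were the 2 past the fold limit. CDC6 lost its call in 7 and CDC45 in 17 of 29 alternatives, and DESeq2 called 1 S phase gene and limma-voom 0. The median mean effects were -0.054 for mitosis, -0.092 for respiratory chain, -0.144 for mitochondrial transcripts, -0.064 for ribosomal proteins and -0.186 for S phase genes.

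The size of the common effect differed between lines for a minority of the genes. A difference in size was taken as an adjusted p below 0.05 for the 3 line effects being equal and a range of at least 1 on the log2 scale, which 1235 tested genes (7.01%) met. Among same-sign called genes, 197 of the higher (15.5%) and 114 of the lower (12.1%) met it. This test used the pooled spread, which is narrower than that of MV4-11. By limma-voom with weights by line, 240 same-sign called genes met it, against 311 in the main fit. MEIS1 was lowered most in MOLM13 and least in OCI-AML3, CD86 raised most in MV4-11, and CDKN1C raised most in OCI-AML3. SOCS2, a feedback inhibitor of cytokine signaling, fell from 36.6 and 41.4 to 7.14 and 7.21 CPM in MOLM13, read 51.5 and 48.9 in controls and 40.1 and 40.7 in treated MV4-11 libraries, and went from 0.993, 1.28 and 1.26 to 0.639, 0.75 and 0.505 CPM in OCI-AML3. It was called lower by itself in MOLM13 and OCI-AML3 (own fit -0.90, adjusted p = 0.0017) and not in MV4-11. PIM1, a kinase gene downstream of STAT5, went the other way from SOCS2, with effects of 0.36, 0.39 and 0.95. The concentration was higher in MV4-11, and its part in these differences cannot be told apart from that of the line.

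**Figure D5:**
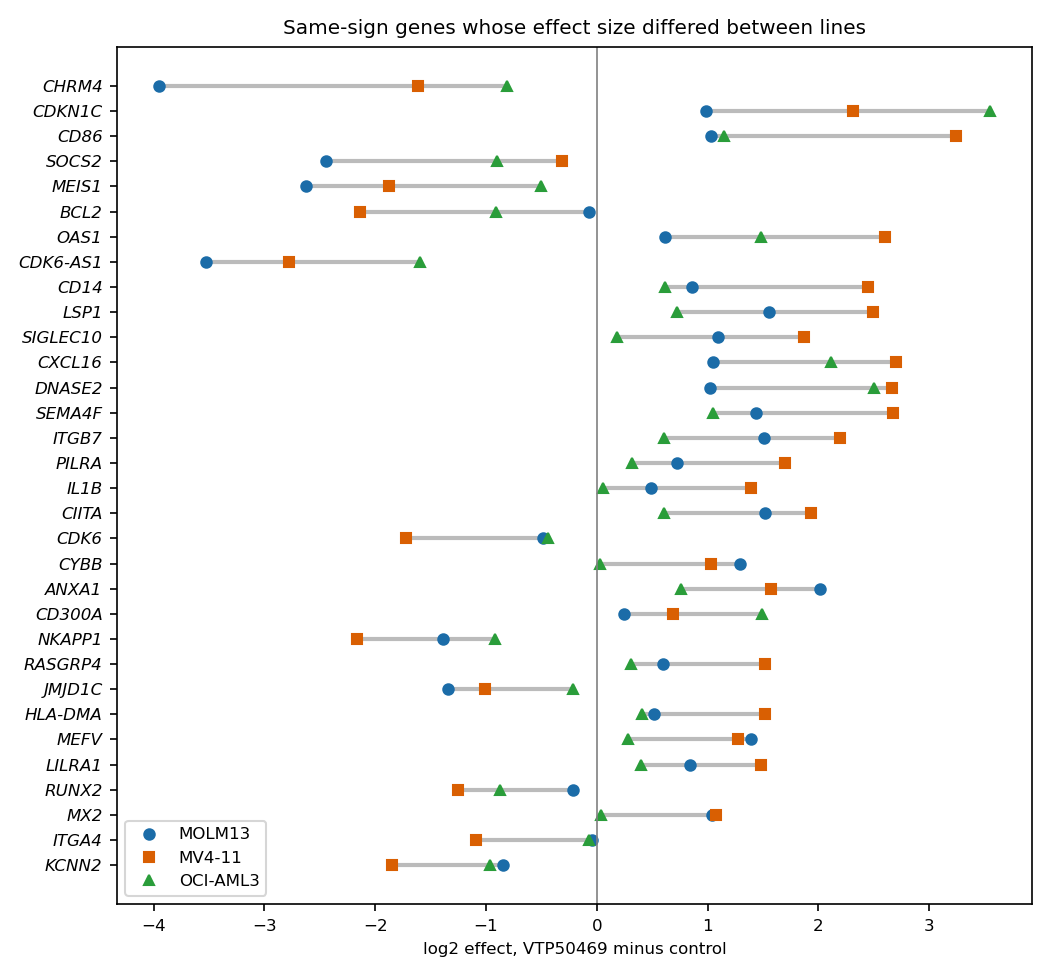
Log2 effects (horizontal axis) in MOLM13 (circles), MV4-11 (squares) and OCI-AML3 (triangles) of the named same-sign genes whose effect size differed between lines, ordered by the range, with a grey line joining the lowest and highest. CHRM4 has the widest range, 3.15, and OCI-AML3 lies nearest to 0 for MEIS1, JMJD1C, CYBB and MX2.

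Most markers of other cell types were low, and some moved with treatment. The summed level of 10 lymphoid markers was 9.14 to 9.28 CPM in MOLM13 controls and 9.26 to 10 in treated libraries, and 4.79 to 5.11 and 6.4 to 7.72 in MV4-11. It was 0.702 to 1 and 2.6 to 3.01 in OCI-AML3, and the groups did not overlap in MV4-11 or OCI-AML3. CD79A was the lymphoid marker called and higher in every line (mean effect 0.63), 1 of 5 tested of 10. Of the 14 erythroid and megakaryocyte markers 5 were tested and GP1BA was called higher, and their sum was higher without overlap in the treated libraries of every line. It was 31.3 to 33.9 CPM in MOLM13 controls and 36.7 to 37 in treated libraries, 28.1 to 32.3 and 37.5 to 37.7 in MV4-11, and 20.4 to 21.3 and 27.1 to 28.8 in OCI-AML3. Most of this sum was EPOR, at 17.6 to 34.6 CPM over the libraries and not called (mean effect 0.21). The other markers of that list were at 3.17 CPM or less. Of the 12 epithelial and stromal markers 6 were tested, COL1A1 was called higher and PDGFRB lower, and KRT19 and CDH1 were at 0 in every library. KRT8 and KRT18 reached the highest levels, 14 and 8.35 CPM, and were not called. The sum of these 12 was 15 to 18.3 CPM in MV4-11 controls and 21.6 to 24.7 in treated libraries, 1.3 to 1.84 and 2.11 to 2.62 in OCI-AML3, and 1.4 to 1.86 and 1.77 to 1.94 in MOLM13, where the groups overlapped. The part of these markers in the results above was not tested. In bulk libraries a change in the share of cells with a transcript and a change in RNA per cell cannot be told apart.

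At the edge of the rule, the called gene with the smallest mean effect was LINC00847 (line effects 0.17, 0.62 and 0.18) and the nearest gene outside was BICRA (0.35, 0.52 and 0.10), both at a mean of 0.32.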

How the data were processed

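Total RNA was isolated with an Ambion kit, treated with DNase I and sequenced from standard Illumina libraries. The authors deposited raw counts of reads for 58037 Ensembl gene IDs, with a column for each library. STAR and hg38 are named by the submitters' processing notes and TopHat2 by the study's methods, so the aligner is unsure, and the sources used here do not give its version, the counting program, strand setting or annotation. Symbols were matched for 40931 IDs and the other IDs held 0.383% of counts. RefSeq GRCh38.p14 positions were found for 15699 of the tested IDs.

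Counts of the 14 libraries were fitted with edgeR 4.0.16 (glmQLFit, glmQLFTest, limma 3.58.1, R 4.3.3) with TMM scaling and filterByExpr in a model of 6 group means without covariates, in which each line is set against its own controls. The mean effect is a contrast with equal weights for the lines, and p-values were adjusted over all 17623 tested genes. The study itself used limma after quantile normalization with the same fold limit of 1.25. Each line was also fitted alone. CPM values of genes are TMM-scaled, while levels and sums of cell type markers and the floors use library totals without TMM factors, and standard errors were derived from the F statistic. The fit was tested on simulated data with known folds before use. A count of 0 in a library allows up to 3 counts, which is 0.0502 to 0.145 CPM, and such floors cover counting error only. MOLM13 and OCI-AML3 replicates are described as biologic, and nothing is said for MV4-11, so p-values measure the spread between these libraries, which may be technical. Replicate pairs all differed by more than counting noise and each was counted.

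Genes named are the 12 largest rises and falls by the smallest line effect, with at least 1 CPM, and members of 38 gene lists, and others are marked as chosen after their values were seen. A few genes that meet these rules are not reported here. The comparison, the lists and the rules were chosen with earlier results of these data known. Alternatives in scaling, filter, tool, model, libraries and lines were tried. DESeq2 1.42.0 was used as an alternative test.

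Samples with the same replicate number did not deviate together in each line (correlation of deviations from the group means -0.057 in MOLM13, 0.122 in MV4-11, and for OCI-AML3 0.168, 0.008 and 0.05), so replicate numbers were not taken as pairs.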

Additional observations from a re-analysis of the deposited data

Results flagged for a closer look

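The effect of VTP50469 differed in size between the lines for 41 of the genes followed, by the test of equal line effects (edgeR, adjusted p below 0.05) with a range of at least 1 on the log2 scale. Values below are that range, the largest minus the smallest line effect.

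Some of the widest ranges belonged to genes with an opposite sign in 1 line. CCND2, the cyclin D2 gene, had a range of 5.47, with effects of -0.23 in MOLM13, -0.94 in MV4-11 and 4.53 in OCI-AML3, where its control libraries held 14 reads in all and its treated libraries 356. MEF2C had a range of 3.51, S100A8 of 2.98, ISG15 of 2.86, S100A9 of 2.24, CSF1R of 1.89, MLLT3 of 1.66, MPO of 1.46 and BMI1 of 1.31. MPO, the myeloperoxidase gene, read 109 and 108 CPM in MOLM13 controls and 174 and 171 in treated libraries, against 29.6 and 26.5 and then 16.7 and 15.8 in MV4-11.

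Among genes lower in every line, the range was 3.15 for CHRM4, 2.13 for SOCS2, 2.12 for MEIS1, 2.07 for BCL2, 1.93 for CDK6-AS1, 1.28 for CDK6, 1.24 for NKAPP1, 1.13 for JMJD1C, 1.04 for RUNX2 and ITGA4 and 1 for KCNN2. BCL2 read 164 and 176 CPM in MOLM13 controls and 164 and 160 in treated libraries, while MV4-11 went from 144 and 158 to 30.9 and 38.

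Among genes higher in every line, the range was 2.57 for CDKN1C, 2.21 for CD86, 1.98 for OAS1, 1.83 for CD14, 1.76 for LSP1, 1.69 for SIGLEC10, 1.65 for CXCL16, 1.64 for DNASE2, 1.62 for SEMA4F, 1.59 for ITGB7 and 1.38 for PILRA. It was 1.34 for IL1B, 1.33 for CIITA, 1.27 for CYBB, 1.26 for ANXA1, 1.24 for CD300A, 1.21 for RASGRP4, 1.11 for HLA-DMA and MEFV, 1.08 for LILRA1 and 1.04 for MX2. LSP1, an actin-binding protein gene of leukocytes, had 10 and 18 reads in the OCI-AML3 groups, and CD300A 22 and 67.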

How the results depend on the processing

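Without scaling factors 1758 genes were called and higher in every line and 556 lower (694 lower in the mean), so that 76% of calls were higher, against 57.3% with TMM and 67.4% with upper-quartile factors, and the median mean effect of all genes moved to 0.061. Members called lower were then 12 of the MYC and ribosome biogenesis list and 3 of the unfolded protein response list. The stricter filter gave 623 lower in every line, 722 lower in the mean and 202 that differed in size. A test against the fold limit itself kept 501 and 324 same-sign genes and 598 and 354 in the mean. DESeq2 called 103 genes higher in each line. Leaving out MOLM13 gave 1499 lower, 431 and 171 called in each remaining line, and 17 interferon-stimulated genes. Leaving out MV4-11 gave 565 lower, 601 lower in the mean, 265 and 131 in each line and 93 that differed in size. List counts were then 4 (MYC), 1 (unfolded protein response), 3 (MHC class II), 0 (lysosome) and 2 (monocyte and granulocyte). At an unadjusted p below 0.05 (edgeR), 33 MYC list members were lower in both remaining lines. For the unfolded protein response 15 were lower and 3 higher, and for lysosome genes 10 were higher and 6 lower. Leaving out OCI-AML3 gave 386 and 216 in each line, 163 that differed in size, 11 MLL targets of the study and 14 monocyte and granulocyte genes, and CCND2 turned to -0.57. Over the 14 libraries left out in turn, same-sign counts ran from 1132 to 1370 higher and 894 to 1074 lower, and counts in each line from 120 to 160 and from 49 to 72. Without MV4-11 control replicate 1 they were 1166, 894, 120 and 54, and the unfolded protein response count was 5. With a replicate block they were 1236, 932, 169 and 69 (308 that differed in size), and no count moved by over 1.5 times. The list counts under other settings were chosen after seeing the data. Of 120 called genes followed, 70 kept their call under every alternative. Counts of a few reads limit CHRM4, MDGA1, ADAMDEC1, HLA-DQB1, OAS3, PDE4DIPP7 and GOLGA8Q. The causes of these shifts were not tested.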
